A study of Homo sapiens with 40 samples.

Results

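The comparison described here is that of BT474 cells 1 h after a change to fresh starvation medium containing the water vehicle with BT474 cells at T0, that is, after serum starvation and before the change. BT474 is a HER2-overexpressing human breast ductal carcinoma line that is sensitive to trastuzumab. The comparison takes the 4 libraries whose labels name the BT474 baseline (T0, 2 libraries) and the BT474 control at 1 h (vehicle, 2 libraries), out of 40 libraries in 20 groups in the whole study. All 40 come from BT474 or from BT474R, a trastuzumab-resistant clone derived from it, at T0 or after EGF, HRG (heregulin) or vehicle for 1, 12 or 24 h. Every group was serum starved, was handled in the same way at harvest by enzymatic detachment, and has 2 libraries that are known only by their replicate number, so that p-values measure the spread between these libraries, which may be technical. The vehicle group differs from T0 in the water added, in the fresh starvation medium, in the handling of the medium change and in 1 h of further time, and the parts of these in a change cannot be told apart.

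The 4 libraries held between 19200632 and 24915217 counts on genes. Markers of luminal breast epithelium summed to between 17157 and 17303 CPM (counts scaled to the size of the library) in every one of them, with ERBB2, the gene of HER2, at 8347 ± 22.9 CPM at T0 and 8264 ± 7.61 CPM at vehicle 1 h (mean ± SD, n = 2 libraries). Of these 13 markers 1 was called between the groups (TFAP2C, 1.09-fold higher). Over all genes tested, 3.67% were called higher and 2.94% lower. Markers of leukocytes summed to between 2.6 and 3.64 CPM, with CD3E at 0 counts in all 4 libraries. The 9 fibroblast markers summed to between 110 and 138 CPM, nearly all of it COL1A1 and VIM, while COL1A2, DCN and PDGFRB were at 0 counts. Of the 5 tested, 1 was called (VIM, lower, at 0.767 of its T0 level), and the sums were 125 and 138 CPM at T0 and 120 and 110 CPM at vehicle 1 h. Basal markers summed to between 13.3 and 15.8 CPM and none of the 7 tested was called. Endothelial markers summed to between 20.3 and 25.5 CPM, with TEK at 0 counts in all 4 libraries, and 1 of the 4 tested was called (CDH5, 3.64-fold higher).

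Some background helps to read the genes that follow. Immediate early genes are transcribed within minutes of a stimulus from factors already present in the cell, and many encode transcription factors of the FOS, JUN, EGR, NR4A and KLF families. Many of their transcripts are short-lived, as are those of MAP kinase feedback genes such as the dual-specificity phosphatases (DUSP) and the Sprouty proteins (SPRY), so that such a wave usually passes. The p53 protein is a transcription factor whose best known targets include CDKN1A, an inhibitor of cyclin-dependent kinases, and MDM2, the ubiquitin ligase that degrades p53 itself.

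**Figure D1:**
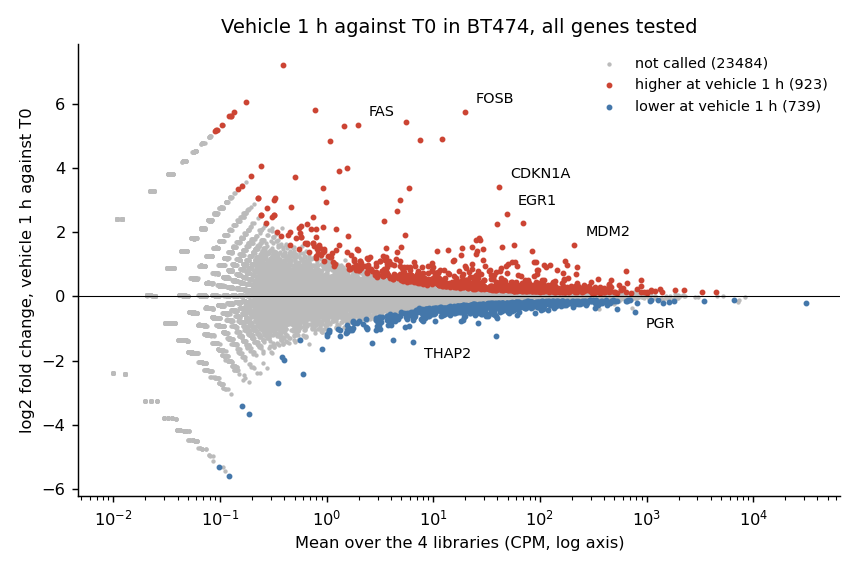
Log2 fold change of vehicle 1 h against T0 in BT474 (y axis) against the mean over the 4 libraries in CPM (x axis, log scale), 1 point per gene tested. The 923 genes called higher (red) reach larger changes than the 739 called lower (blue), most of which lie close to 0.

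Of 25146 genes tested with edgeR's quasi-likelihood test at an adjusted p of 0.05, 923 were higher at vehicle 1 h (3.67% of those tested) and 739 were lower (2.94%). The changes were small for most of these genes. The median absolute log2 fold change was 0.36 among the higher calls and 0.31 among the lower calls, and the median over all genes tested was 0.01. More than a log2 change of 1 was reached by 147 higher and by 29 lower genes, and more than 2 by 56 higher and 6 lower genes. When copy rows (rows that repeat a gene name with an added number) were summed, 817 genes were called higher and 908 lower. Which direction had more calls therefore depended on this choice. The number of calls depended on the libraries and on the test. It lay between 805 and 924 when any 1 of the 4 libraries was left out, and was 1197 with DESeq2 and 2831 when the fit held the 4 libraries alone.

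The rising genes were led by immediate early factors and by p53 targets. The 15 genes with the largest rise at a mean of at least 1 CPM were FOSB, CCN2, FAS, FOSL1, EGR3, GDF15, EGR4, EGR2, RASD1, CDKN1A, ATF3, PLK3, RGS16, EGR1 and FOS, with log2 fold changes between 2.34 and 5.75. Of these, 8 are in the list of immediate early factors and 4 in that of p53 targets. Each of the 15 had both vehicle libraries above both T0 libraries, which the rule for naming them required, and each was called whichever library was left out. Over all genes tested, 25.3% had both vehicle libraries above both T0 libraries and 24.2% had both below.

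**Figure D2:**
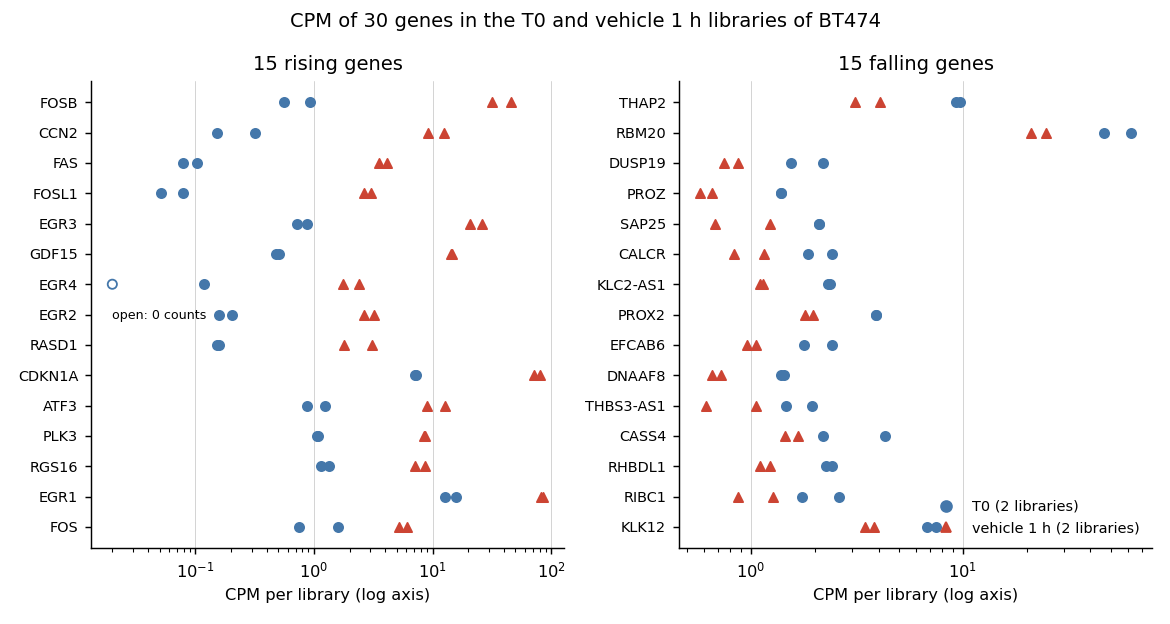
CPM in each library (x axis, log scale) of the 15 genes with the largest rise (left) and the 15 with the largest fall (right), 1 row per gene; blue circles are the 2 T0 libraries and red triangles the 2 vehicle 1 h libraries of BT474, and an open circle is a library with 0 counts. The rising genes are separated by far wider gaps than the falling genes, most of which lie under 5 CPM.

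Promoter sequences are shown for a few rising genes because letters known to be bound by the factors of each group occur in them. They are the 250 bases before the start of the gene, given by RefSeq on GRCh38.p14, with the match in capitals. EGR1 lies on the plus strand, and its window at chr5:138465229-138465478 holds 2 CArG boxes, the letters bound by serum response factor (SRF), which begin at -105 and -83 from the start. EGR2 has 3 windows, of which that at chr10:62816367-62816616 on the minus strand holds 1 CArG box at -71. In FOSB, at chr19:45467746-45467995 on the plus strand, the letters TGACG, the core of the cAMP response element, begin at -60. FAS also has 3 windows, and that at chr10:88991181-88991430 on the plus strand holds a p53 half-site that begins at -122.
EGR1: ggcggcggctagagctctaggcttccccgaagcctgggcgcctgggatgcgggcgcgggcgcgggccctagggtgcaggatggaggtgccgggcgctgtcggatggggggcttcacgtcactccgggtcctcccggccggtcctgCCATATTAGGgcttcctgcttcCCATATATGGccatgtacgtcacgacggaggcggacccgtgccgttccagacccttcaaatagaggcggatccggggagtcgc
EGR2: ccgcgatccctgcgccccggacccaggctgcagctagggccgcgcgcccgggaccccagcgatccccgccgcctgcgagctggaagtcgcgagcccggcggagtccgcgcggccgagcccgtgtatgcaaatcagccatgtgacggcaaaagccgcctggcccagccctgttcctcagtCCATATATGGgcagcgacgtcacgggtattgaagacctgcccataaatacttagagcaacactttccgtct
FOSB: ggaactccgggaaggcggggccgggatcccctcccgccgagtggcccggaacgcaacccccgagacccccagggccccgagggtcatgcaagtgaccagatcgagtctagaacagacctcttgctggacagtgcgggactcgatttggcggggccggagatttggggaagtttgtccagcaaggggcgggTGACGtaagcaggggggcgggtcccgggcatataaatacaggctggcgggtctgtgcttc
FAS: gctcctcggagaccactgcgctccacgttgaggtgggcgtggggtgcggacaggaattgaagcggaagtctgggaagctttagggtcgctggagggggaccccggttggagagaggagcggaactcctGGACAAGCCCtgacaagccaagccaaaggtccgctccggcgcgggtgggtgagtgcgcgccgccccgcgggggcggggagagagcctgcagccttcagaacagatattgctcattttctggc

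All 3 motifs were searched on both strands in the 250 bases before every start of 27305 genes of the promoter table. CArG boxes were found for 1.44% of these genes, and for 3 of the 25 immediate early factors with an entry (EGR1, EGR2 and SRF itself). TGACG was found for 24.9% of all genes and for 17 of these 25 factors. It was also found for 6 of the 13 rising and 5 of the 13 falling named genes with an entry, and for 6 of 14 p53 targets. The p53 half-site was found for 6.8% of all genes and for 3 of the 14 listed p53 targets with an entry (FAS, SESN1 and PLK2). Of the 13 rising named genes with an entry, 1 had it (FAS, 7.69%). FOSL1 and EGR3 have no entry in the promoter table. These matches describe letters and are not evidence of binding.

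Of 32 immediate early factors, 26 rose and 1 fell between T0 and vehicle 1 h, with a median log2 fold change of 0.92, where 3.67% of all genes tested were called higher. FOSB, a partner of JUN in the AP-1 transcription factor, stood at 0.556 and 0.923 CPM in the T0 libraries and 46.1 and 31.9 CPM in the vehicle libraries. This was a log2 fold change of 5.75 ± 0.20 (SE), or 53.8-fold (edgeR, adjusted p = 5.37e-23). EGR1, a zinc finger factor, was already detected at T0, at 12.7 and 15.9 CPM, and reached 82.3 and 85.1 CPM, a 5.91-fold rise. Its relative EGR3 went from 0.715 and 0.872 CPM to 26.1 and 20.8 CPM. FOS itself stood at 0.755 and 1.59 CPM at T0 and at 5.24 and 6.12 CPM at vehicle 1 h. None of these 4 genes had overlapping groups, which the rule for naming them required.

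FOSL1, EGR4 and FAS were near the limit of detection at T0, and their fold changes are therefore wide. FOSL1, another AP-1 partner, had 3 counts over both T0 libraries and 124 over both vehicle libraries, a ratio of 42.3 with an exact 95% interval for counting error from 14.1 to 208. EGR4 had 3 against 90 counts, a ratio of 30.7 (10.2 to 152). All 3 of its T0 counts were in replicate 1. Its log2 fold change of 4.84 was 4.05 without T0 replicate 2 and 8.62 without T0 replicate 1. In the latter fit the T0 library left had no counts of EGR4, so that 8.62 is not a measured ratio. For FAS, the death receptor, 4 counts stood against 168, a ratio of 43.0 (16.5 to 160). In all 3 genes both vehicle libraries lay above both T0 libraries, which the naming rule required, and the smallest lower end of the intervals is 10.2.

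Other factors rose less. JUN went from 44.4 and 46.6 CPM to 133 and 110 CPM, a 2.67-fold rise, and KLF2 from 11.7 and 13.7 CPM to 42.8 and 42.3 CPM. The orphan nuclear receptor NR4A1 rose 2.94-fold, IER5 rose 2.70-fold and MAFF 3.81-fold. KLF6 (1.89-fold), IER2 (1.61-fold), JUND (1.43-fold), JUNB (1.34-fold) and SRF (1.21-fold) also rose. The 5 members that were not called were MYC, IER3, MAFK, ID2 and ID3. With copy rows summed, 28 of the 32 factors were called higher. MYC stood at 48.8 and 52.4 CPM at T0 and 53.5 and 56.2 CPM at vehicle 1 h, a log2 fold change of 0.12 ± 0.06. FOSL2, a FOS family member, fell from 202 and 191 CPM to 172 and 171 CPM.

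Feedback genes of the MAP kinase pathway were called in 1 direction. Of 23, 15 rose and none fell, against 3.67% higher and 2.94% lower over all genes tested. The median log2 fold change of the list was 0.68. DUSP4, a phosphatase that inactivates ERK, stood at 474 and 458 CPM at T0 and 803 and 814 CPM at vehicle 1 h. DUSP6, which acts on cytoplasmic ERK, went from 32.1 and 29.3 to 52.3 and 55.1 CPM. SPRY4 (2.15-fold), SPRY1 (1.93-fold), the ETS factors ETV4 (1.76-fold) and ETV5 (1.93-fold), and TRIB1 (1.99-fold), a pseudokinase, rose as well. ERRFI1, an inhibitor of the EGF and HER2 receptor kinases, rose 1.84-fold. For LIF, a cytokine of the interleukin-6 family, 1 count over the T0 libraries stood against 67 over the vehicle libraries, a ratio of 68.6 with a counting interval from 11.9 to 2749. The EGF receptor ligands AREG, EREG and HBEGF had log2 fold changes of 0.38, 0.59 and 0.76 that did not pass the test.

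Among 20 tested ERBB receptors, ligands and neighbours of ERBB2, 3 rose and none fell, against 3.67% higher over all genes tested. EPGN and NRG4, ligands of the family, rose but stayed at or under 1.15 CPM in each library, and LRIG1, which lowers receptor levels, rose 1.14-fold. ERBB2, ERBB3 and EGFR had log2 fold changes of -0.01 ± 0.02, -0.10 ± 0.04 and -0.01 ± 0.07, none of them called.

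Targets of serum response factor and of the YAP-TEAD factors rose in 9 of 18 tested cases and fell in none. The share called higher over all genes tested was 3.67%. CCN2, a matricellular protein and a standard YAP target, went from 0.318 and 0.154 CPM to 12.5 and 9.19 CPM. With 11 counts over both T0 libraries and 470 over both vehicle libraries, its ratio was 43.7 with an exact 95% counting interval from 24.2 to 88.2, and its log2 fold change of 5.42 was 6.09 without T0 replicate 1. Its relative CCN1 rose 2.88-fold, from 12.2 and 11.3 to 34.4 and 33.6 CPM. AMOTL2 and LATS2, which restrain YAP, rose 2.10-fold and 1.78-fold. The actin genes ACTB and ACTG1 each rose 1.10-fold from levels above 3000 CPM.

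**Figure D3:**
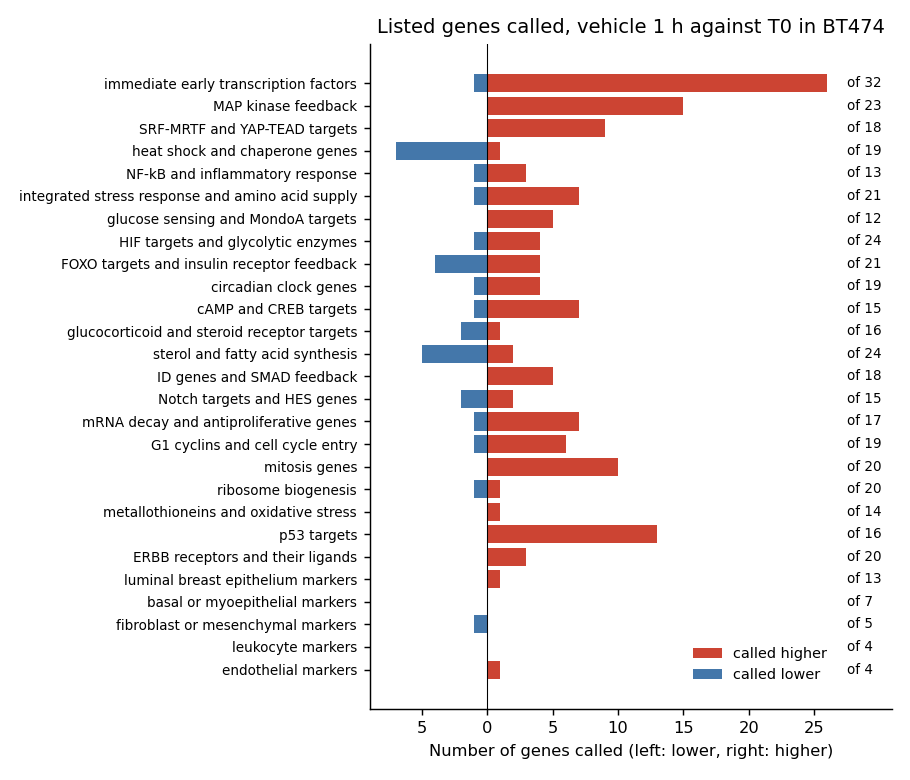
Number of genes called lower (blue, left) and higher (red, right) at vehicle 1 h against T0 in BT474 in each of 22 pathway lists and 5 marker lists, with the number tested at the right edge. Calls among immediate early factors (except FOSL2), feedback genes, p53 targets and mitosis genes were all higher, and those among chaperones (except HSPA5) were all lower. Over all genes tested, 3.67% were called higher and 2.94% lower.

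The p53 targets formed the other large group. Of 16 listed targets 13 rose and none fell, where 3.67% of all genes tested rose and 2.94% fell. The median log2 fold change of the list was 1.00. CDKN1A stood at 7.23 and 7.13 CPM at T0 and at 71.7 and 80.2 CPM at vehicle 1 h, a log2 fold change of 3.40 ± 0.10 or 10.6-fold (edgeR, adjusted p = 9.16e-26). MDM2 went from 103 and 104 CPM to 318 and 317 CPM, a 3.07-fold rise with replicates that differed by under 2 CPM. GDF15, a secreted stress cytokine of the TGF-beta family, rose from 0.477 and 0.513 CPM to 14.4 and 14.6 CPM. None of these genes had overlapping groups, which for CDKN1A and GDF15 the naming rule required. All 13 listed targets that rose were also called with DESeq2 and with the 4 libraries alone.

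Other members of the list rose as well. PLK3 and PLK2, polo-like kinases of the stress response, rose 7.98-fold and 1.97-fold. SESN2 and SESN1, which restrain mTORC1, rose 2.64-fold and 2.03-fold, and BBC3, which encodes the pro-apoptotic protein PUMA, rose 2.03-fold from 14.4 and 16.1 CPM to 30.0 and 31.4 CPM. The DNA repair genes DDB2 (1.52-fold) and XPC (1.37-fold), as well as the antiproliferative gene BTG2 (1.38-fold), were among those that rose least. PMAIP1, RRM2B and ZMAT3 were not called, with log2 fold changes of -0.04 ± 0.12, -0.02 ± 0.05 and 0.05 ± 0.09. GADD45A, a growth arrest gene that p53 also regulates, is in another list and rose 2.86-fold.

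A few further genes were named after their values had been seen. AEN, a nuclease that p53 induces, went from 14.2 and 12.8 to 65.3 and 65.1 CPM, a 4.81-fold rise. TNFRSF10B, the death receptor for TRAIL, rose 2.81-fold and the repressor E2F7 rose 2.17-fold.

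Several lists with overlapping functions rose in part, beside 3.67% higher and 2.94% lower calls over all genes tested. Stress response genes of the ATF4 pathway were called in 8 of 21 cases, 7 of them higher: besides GDF15 and SESN2 these included PPP1R15A (1.95-fold), which reverses the phosphorylation of eIF2, DDIT3 (1.25-fold) and TRIB3 (1.17-fold). DDIT4, an inhibitor of mTORC1, was the member that fell, from 63.8 and 60.1 to 45.3 and 47.2 CPM. Targets of cAMP signalling rose in 7 of 15 cases and fell in 1 (SIK2), but 5 of the 7 (FOSB, NR4A1, NR4A2, NR4A3 and PER1) are immediate early or clock genes of other lists. Of 19 clock genes PER1 (1.38-fold), PER2 (1.43-fold), RORA (1.36-fold) and BHLHE40 (1.65-fold) rose and DBP fell to 0.603 of its T0 level. SLC30A1, the zinc exporter, rose 3.03-fold and was the 1 called gene of 14 tested metallothionein and oxidative stress genes.

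Inflammatory genes were called in 4 of 13 tested cases, against 3.67% higher and 2.94% lower over all genes tested. NFKBIZ and IRF1 rose 1.57-fold and 1.55-fold, and NFKBIA, the inhibitor of NF-kB, fell to 0.831 of its T0 level. CXCL8 had 0 counts at T0 and 8 over both vehicle libraries, 2.73-fold higher when a floor of 3 counts over the T0 group is used. That value makes no allowance for counting error.

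Insulin and glucose related genes moved both ways, where 3.67% of all genes tested rose and 2.94% fell. Of 21 FOXO targets and receptor feedback genes, 4 rose and 4 fell: IRS2, an insulin receptor substrate, rose 2.63-fold from 2.58 and 2.36 to 7.84 and 5.34 CPM, while SESN3 fell to 0.593, IGF1R to 0.826, CITED2 to 0.823 and IRS1 to 0.866 of the T0 level. Of 12 glucose-sensing genes 5 rose, among them TXNIP (1.12-fold), ARRDC4 (1.29-fold) and ARRDC3 (1.26-fold). HIF targets and glycolytic enzymes were called in 5 of 24 cases, with ADM, a vasodilator peptide, 2.14-fold and the glucose transporter SLC2A1 1.26-fold higher and MXI1 lower. Among 17 genes of mRNA decay and growth arrest, 7 rose and 1 fell (TOB2, to 0.771 of T0).

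Called cell cycle genes were mostly higher. Of 20 mitosis genes 10 rose and none fell, and their median log2 fold change was 0.19. Shares over all genes tested were 3.67% higher and 2.94% lower. MKI67 went from 190 and 190 CPM to 233 and 248 CPM and CENPF, a kinetochore protein, from 330 and 328 to 410 and 400 CPM. Of 19 G1 genes 6 rose, among them CCND1 (1.17-fold) and CCND2 (3.58-fold, from under 0.3 CPM), and the ubiquitin ligase subunit SKP2 fell to 0.799 of its T0 level. Without 1 of the 4 libraries, between 5 and 7 of the mitosis genes were called. Ribosome biogenesis genes had 1 call in each direction among 20, WDR43 higher and POLR1B lower.

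Falling genes had small changes. The 15 with the largest fall at a mean of at least 1 CPM were THAP2, RBM20, DUSP19, PROZ, SAP25, CALCR, KLC2-AS1, PROX2, EFCAB6, DNAAF8, THBS3-AS1, CASS4, RHBDL1, RIBC1 and KLK12, with log2 fold changes between -1.41 and -0.96. THAP2, a zinc finger protein, went from 9.65 and 9.28 CPM to 4.04 and 3.11 CPM, and RBM20, a splicing factor, from 46.1 and 62.1 to 24.6 and 20.9 CPM. Most of the others lay under 5 CPM, and between 6 and 9 of the 15 were still called when 1 library was left out. KLC2-AS1 and THBS3-AS1 are antisense genes, and since the strand setting of the counting is not stated, their reads cannot be told from those of the partner gene.

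Falls outnumbered rises among chaperones. Of 19 heat shock and chaperone genes 7 fell and 1 rose, where 2.94% of all genes tested fell and 3.67% rose. The median log2 fold change of the list was -0.13. The number called lower was 5 with DESeq2 and 10 with no filter or with the replicate block. It was 12 with copy rows summed or with the 4 libraries alone. HSPH1, a co-chaperone of HSP70, went from 304 and 295 CPM to 239 and 255 CPM, and HSPA1A, HSPB8, DNAJB1, HSPA8, FKBP4 and DNAJA1 fell to between 0.817 and 0.907 of their T0 level. The member that rose was HSPA5, the chaperone of the endoplasmic reticulum, by 1.11-fold, a call that was lost whichever library was left out and with both lines in 1 fit. Leaving out 1 library left between 2 and 7 of the list called lower, the lowest number without T0 replicate 1 or without vehicle 1 h replicate 1, and 3 were called lower with both lines in 1 fit.

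PGR, the progesterone receptor and a target of the oestrogen receptor, stood at 877 and 943 CPM at T0 and at 666 and 646 CPM at vehicle 1 h, or 0.721 of its level. GREB1, another such target, went from 361 and 377 to 289 and 282 CPM, and TMPRSS2, an androgen-regulated protease, rose 1.36-fold. The remaining 13 of 16 steroid receptor targets were not called. Among all genes tested, 3.67% were called higher and 2.94% lower. In sterol and fatty acid synthesis 5 of 24 genes fell (SCD, LSS, FDPS, FDFT1 and MVD, to between 0.823 and 0.903 of T0) and 2 rose, among them SREBF1 by 1.13-fold. Of 15 Notch genes HES1 and NOTCH1 rose and HEY2 and NOTCH3 fell, and 5 of 18 ID genes and SMAD feedback genes rose, among them SKIL (1.39-fold) and ID1 (1.88-fold).

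The later vehicle groups showed how long these levels lasted. Both later comparisons share the vehicle 1 h libraries with the comparison above, so that each value is given beside the other. In the test of vehicle 12 h against vehicle 1 h, 1520 genes were higher (6.04%) and 1621 lower (6.45%). At 24 h the numbers were 2000 higher (7.95%) and 2269 lower (9.02%). Without vehicle 1 h replicate 2 the totals were 1748 at 12 h and 2643 at 24 h, and without any other 1 library the total at 12 h was between 1821 and 2062. All 20 mitosis genes were lower at both times than at vehicle 1 h. Of the 32 immediate early factors 26 were lower at each time, and of the 16 p53 targets 13 were lower at 12 h and 14 at 24 h, none higher.

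CDKN1A had 7.77 and 6.74 CPM in the vehicle 12 h libraries, against 7.23 and 7.13 CPM at T0, and its log2 difference from T0 was 0.02 ± 0.13. MDM2 stood at 105 and 99.2 CPM at 12 h, a log2 difference from T0 of -0.02 ± 0.04, and AEN and SESN1 had differences of -0.01 ± 0.09 and 0.04 ± 0.07. The 13 p53 targets that rose had a median log2 difference from T0 of 0.02 at 12 h and -0.03 at 24 h, while their median at vehicle 1 h was 1.02. Immediate early factors were less uniform. EGR1 stayed above T0 at 12 h, at 34.8 and 34.6 CPM, and FOS at 4.33 and 3.45 CPM, and both were called against T0 at 12 h and at 24 h. The 26 factors that rose had a median log2 difference from T0 of 0.16 at 12 h and -0.07 at 24 h.

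**Figure D4:**
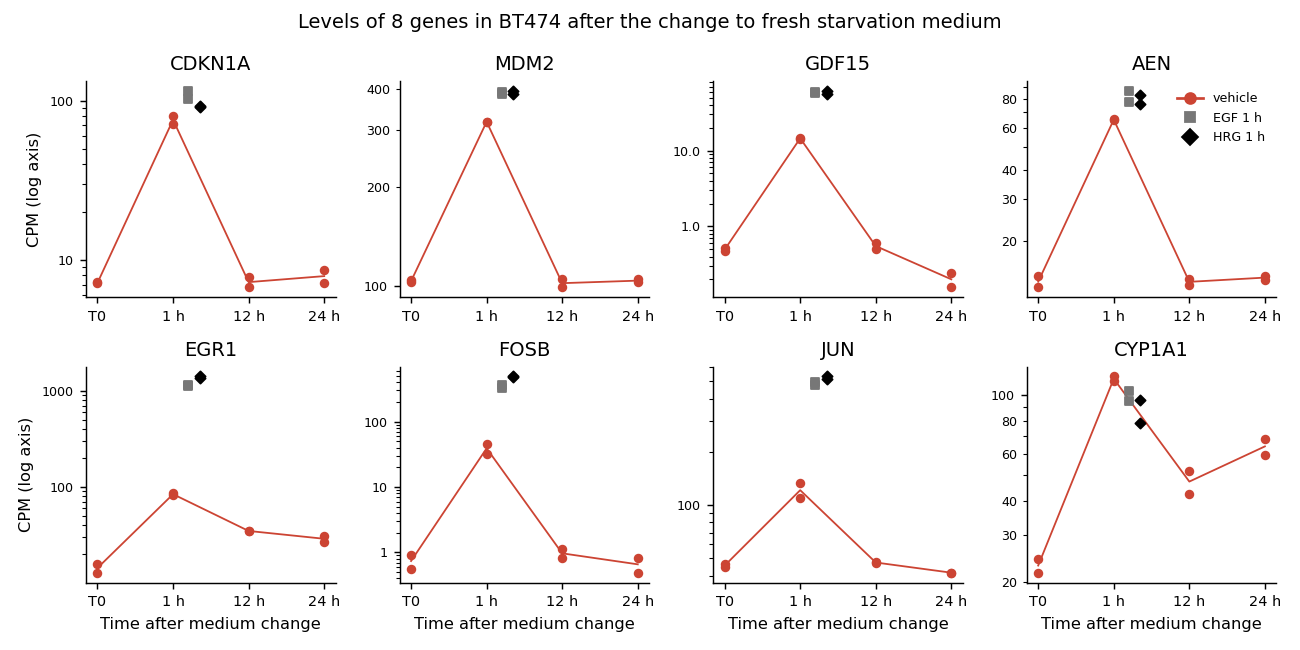
CPM (y axes, log scale) of 8 genes in BT474 at T0 and after vehicle for 1, 12 and 24 h (red circles, 1 per library, with a line through the means), and after EGF (grey squares) or HRG (black diamonds) for 1 h; times are evenly spaced and not to scale. CDKN1A, MDM2, GDF15 and AEN peak at 1 h and are near the T0 level at 12 h, while EGR1 and CYP1A1 stay above it.

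Vehicle at 1 h is also the reference of both ligands at 1 h, and the ligand values are set beside it. EGF raised 416 genes (1.65%) and lowered 134 (0.533%) relative to vehicle 1 h, and HRG, a ligand of ERBB3 and ERBB4, raised 544 (2.16%) and lowered 152 (0.604%). Without vehicle 1 h replicate 2 the totals fell to 347 for EGF and 455 for HRG, and without EGF 1 h replicate 1 the total for EGF was 348. Of the 32 immediate early factors 25 were higher with each ligand and 1 was lower. FOSB differed from vehicle by 3.14 on the log2 scale with EGF and by 3.63 with HRG, and EGR1 by 3.75 and 4.04. p53 targets differed less from vehicle: 6 of 16 were higher with EGF and 6 with HRG, and 1 was lower with HRG. CDKN1A differed by 0.52 and 0.28, MDM2 by 0.29 and 0.30, and FAS by 0.51 and 0.36, of which the values for FAS were not called. GDF15 was the listed target with the largest difference, 2.01 with EGF and 2.02 with HRG. No mitosis gene was called with either ligand.

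In BT474R, the trastuzumab-resistant clone, 277 genes were higher at vehicle 1 h than at T0 (1.14% of 24287 tested) and 267 lower (1.1%). These libraries are separate from those of BT474, and leaving out any 1 of them gave between 162 and 272 calls in all. Of the immediate early factors 21 of 32 rose and none fell, with a median log2 fold change of 1.08, and of the p53 targets 11 of 16 rose and none fell, with a median of 0.50. The common dispersion (spread between replicates) was 0.0012 in the BT474 fit and 0.0030 in the BT474R fit. Numbers of calls in BT474 therefore cannot be set directly against those in BT474R. JUN went from 49.4 and 44.3 CPM to 118 and 131 CPM there, a log2 fold change of 1.42 ± 0.08 against 1.42 ± 0.06 in BT474. KLF2, NR4A1 and EGR1 also had similar values in both lines, 1.77 against 1.75, 1.63 against 1.55, and 2.47 against 2.56. EGR3 had 0 counts at T0 in BT474R and 0.902 and 1.19 CPM at vehicle 1 h.

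The difference between the lines was tested in 1 fit of all 40 libraries. The effect of vehicle 1 h was larger (more positive) in BT474R for 38 of 24641 genes (0.154%) and smaller for 82 (0.333%), and for between 43 and 67 genes in all when any 1 of the 8 libraries compared was left out. Among the p53 targets 4 had a smaller effect in BT474R and none a larger one. CDKN1A stood at 11.5 and 9.38 CPM at T0 and 38.9 and 43.5 CPM at vehicle 1 h in BT474R, and its log2 effect was lower by 1.39 ± 0.33 (edgeR, adjusted p = 0.038) than in BT474. MDM2 went from 124 and 122 to 210 and 219 CPM in BT474R, and its effect was lower by 0.80 ± 0.07. The other 2 targets were SESN2 and PLK2, and BBC3, XPC and BTG2 differed between the lines by 0.11 ± 0.17, -0.05 ± 0.09 and -0.01 ± 0.09, none of them called.

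Of the 32 immediate early factors 1 differed between the lines, MYC. It stood at 3.71 and 3.79 CPM at T0 and 8.81 and 7.40 CPM at vehicle 1 h in BT474R, against 48.8 and 52.4 CPM at T0 in BT474, and its effect was larger by 0.99 ± 0.17 in BT474R. Mitosis genes had 7 smaller effects in BT474R of 20, and none of them rose there, while 1 fell. PGR had an effect that was larger by 0.76 ± 0.13 in BT474R, where it stood at 21.0 and 22.6 CPM at T0 and 24.7 and 28.0 CPM at vehicle 1 h. Of the 15 falling genes, 14 were tested in BT474R and 3 were called lower there (THAP2, RBM20 and SAP25), and none differed between the lines by the test.

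**Figure D5:**
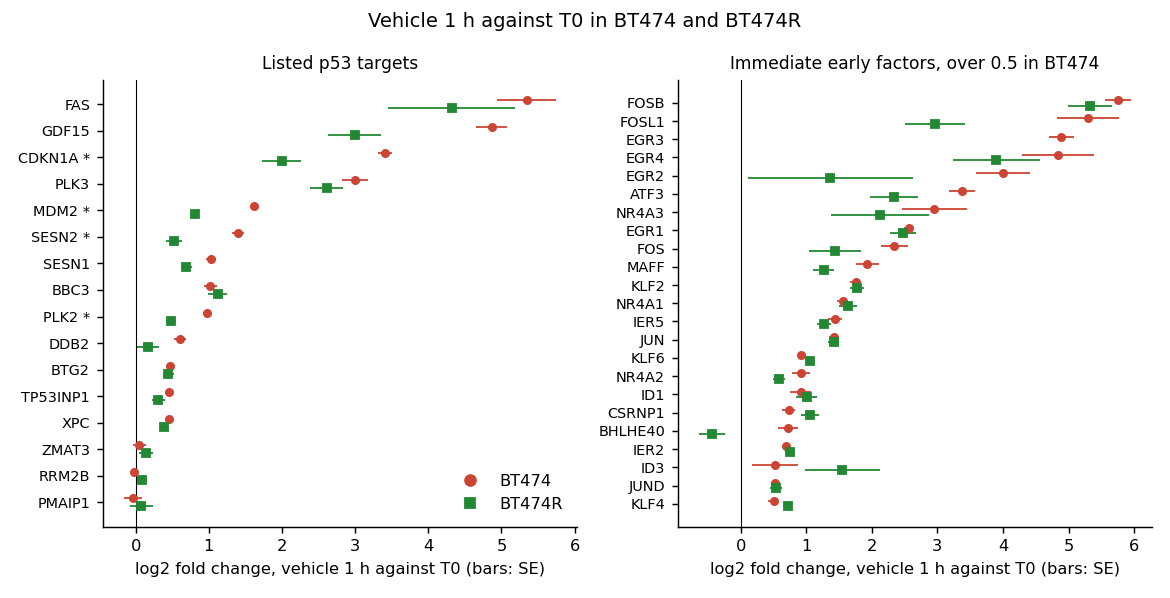
Log2 fold change of vehicle 1 h against T0 (x axis, bars are SE) in BT474 (red circles) and BT474R (green squares) for the 16 listed p53 targets (left) and for the immediate early factors with a value over 0.5 in BT474 (right). An asterisk marks genes whose effect differed between the lines (adjusted p under 0.05), which are CDKN1A, MDM2, SESN2 and PLK2; EGR3 has no point in BT474R because it had 0 counts there at T0.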

How the data were processed

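RNA of BT474 and BT474R was sequenced in 40 libraries, 2 per group. The deposited values are raw counts of reads per gene in 1 table of 44584 names. According to the methods and the labels, the authors trimmed paired reads with Trim Galore 0.6.6 and aligned and counted them on GRCh38.p13 with Rsubread (featureCounts). How strand and multiply mapped reads were handled, and which gene annotation served, is not given in the sources used here. Columns were assigned to samples by the name in each sample's description. Rows that repeat a gene name with an added number (5078 rows, 2.96% of counts) were kept apart.

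Counts were tested with edgeR 4.0.16 (R 4.3.3; limma 3.58.1) by its quasi-likelihood F test with TMM factors and Benjamini-Hochberg adjustment, on genes with at least 1 count in 50% of the libraries, in 1 fit per line (20 libraries each) and in 1 fit of all 40 for the difference between the lines. CPM are counts divided by TMM-adjusted totals. SE was derived from the F statistic. A call is an adjusted p under 0.05. DESeq2 1.42.0 was an alternative, as were other normalizations, filters, sets of libraries, a replicate block and leaving out libraries. The tests were checked on simulated counts. Intervals for ratios of counts are exact 95% intervals and cover counting error only.

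Genes named in the text were the up to 15 per direction with the largest log2 fold change among calls with a mean of at least 1 CPM and no overlap between the groups, leaving out copy rows and LOC or LINC names, and the members of 23 pathway lists and 5 marker lists. The members and lists were chosen with earlier results of these data known. None of the 26 names of the list of mitochondrial transcripts is in the table. Promoter sequences came from RefSeq (GRCh38.p14), and 13 of the 15 rising genes matched. Python 3.11.15, pandas 2.3.3 and scipy 1.17.1 were used. Values of some genes are not reported here.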

Additional observations from a re-analysis of the deposited data

Results flagged for a closer look

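The effect of vehicle 1 h differed between BT474 and BT474R (fit of all 40 libraries, edgeR, adjusted p under 0.05) for 32 of the 446 named and listed genes that this fit tested. Over all 24641 genes of the fit, 0.154% had a larger effect in BT474R and 0.333% a smaller one. The 32 are given as the log2 effect in BT474R minus that in BT474, and 26 had a lower value in BT474R. Part of the 446 were picked for a large rise in BT474, or after their values were seen, which favours lower values in BT474R. The count of 26 therefore cannot show by itself that effects were smaller in BT474R.

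Among p53 targets and genes known to respond to p53, the differences were -1.39 for CDKN1A, -0.80 for MDM2, -0.87 for SESN2, -0.49 for PLK2, -0.94 for GADD45A, -0.68 for AEN, -1.0 for TNFRSF10B and -0.77 for E2F7. Among signalling feedback and early genes they were -0.59 for DUSP4, -0.75 for SPRY4, -0.81 for CCN1, -2.17 for RASD1 and 0.99 for MYC. The inhibitor NFKBIA differed by 0.61 and TGIF1, a corepressor of SMAD factors, by 0.50. In nutrient and oxygen related genes the differences were -1.32 for DDIT4, -0.38 for TXNIP, -1.31 for ARRDC3, -2.61 for ADM and -0.43 for CCNG2.

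The mitosis genes with a difference were CCNB1 (-0.30), CDK1 (-0.43), CENPF (-0.34), KIF20A (-0.43), TOP2A (-0.33), MKI67 (-0.40) and UBE2C (-0.35). CYP1A1 and CYP1B1, enzymes induced through the aryl hydrocarbon receptor, differed by -1.71 and -0.76. PGR differed by 0.76, TFAP2C by 0.32 and VIM by 0.57. DDIT4 fell in both lines, and ADM rose in BT474, while its log2 fold change of -1.53 in BT474R was not called.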

How the results depend on the processing

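The 15 rising genes kept their direction and their call under all alternatives run. The 15 falling genes kept their direction, and all stayed called with DESeq2 size factors, both other filters, the 4 libraries alone, the replicate block and summed copy rows. With both lines in 1 fit 13 stayed called, with DESeq2 itself 7 of the 13 that had an adjusted p, and without 1 library between 6 and 9. Of the genes called in the 4 libraries alone (2831), 58.7% were among the 1662 calls above, and with DESeq2 (1197) 98.9% were.

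Leaving out 1 library at a time gave between 805 and 924 calls for vehicle 1 h against T0 in BT474, and between 162 and 272 in BT474R, where no filter gave 892. For the difference between the lines, DESeq2 gave 196 genes, no filter 280, and leaving out 1 library between 43 and 67. Against vehicle 1 h, leaving out 1 library gave between 1748 and 2062 calls at 12 h, 2643 and 3068 at 24 h, 347 and 450 with EGF, and 455 and 518 with HRG. An arm left with 1 library was assumed to vary like the others, and the lower counts come with fewer samples.

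Deviations of libraries with the same replicate number correlated at -0.07 between T0 and vehicle 1 h, and between -0.08 and 0.36 over 45 pairs of BT474 groups, of which 9 were over 0.1. Since this did not hold for every pair, and no label ties the numbers to a shared culture or day, the numbers were not taken to pair the samples. With the replicate block 1787 genes were called in BT474, 578 in BT474R and 160 between the lines, and 3343, 4467, 634 and 764 in the comparisons with vehicle 12 h, vehicle 24 h, EGF and HRG. Depth limits the genes under 1 CPM, where 76 of the 1662 calls lie.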

Other observations

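The genes in this part were chosen after their values had been seen. CYP1A1, a cytochrome that the aryl hydrocarbon receptor induces, stood at 24.5 and 21.7 CPM at T0 and at 112 and 117 CPM at vehicle 1 h in BT474, a 4.93-fold rise (edgeR, adjusted p = 7.67e-22). CYP1B1 rose 2.45-fold and TIPARP 1.78-fold, and AHRR, the repressor of the same receptor, had a log2 fold change of 0.09 ± 0.42 at under 1 CPM. CYP1A1 was the gene of these 4 that stayed highest, with log2 differences from T0 of 1.04 at 12 h and 1.46 at 24 h of vehicle, both called.

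EPHA2, a receptor tyrosine kinase, went from 11.8 and 11.5 CPM to 40.9 and 42.4 CPM. The gel-forming mucins MUC5B and MUC19 rose 2.18-fold and 2.66-fold, and of 11 tested genes with a MUC name and number 3 rose and none fell. Of 545 tested genes with a ZNF name and number 20 rose and 65 fell, with a median log2 fold change of -0.05, against 3.67% higher and 2.94% lower over all genes.

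The cold-induced RNA-binding protein RBM3 stood at 256 and 258 CPM at T0 and at 307 and 288 CPM at vehicle 1 h, a 1.16-fold rise, while CIRBP, of the same family, had a log2 fold change of 0.04 ± 0.05 that was not called. The temperature of the cells during the medium change was not measured here.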
